A study of Mus musculus with 217 samples.

Results

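The genes described here code for the machinery that carries new proteins from the endoplasmic reticulum (ER) to the Golgi: the signal recognition particle, the translocon and its TRAP partner complex, signal peptidase, the COPII and COPI vesicle coats, the TRAPP tethers, and the p24, lectin and KDEL receptors. They were chosen by symbol, and 76 of the 9739 measured genes carried one of these names. Cells were taken by microdissection from tibia growth plates of C57/BL mice, wild type in genotype and 7 days old, and all carried these labels alike. PolyA RNA was amplified with the SMARTer method before Nextera XT library preparation. The sources name no animal and no number of animals, so that the 217 cell columns count as 1 sample, cells are not replicates, and no test or p-value is given.

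A growth plate chondrocyte secretes very large amounts of aggrecan and fibrillar collagen, and this load passes through the ER. The signal recognition particle brings a ribosome that is making a secreted protein to the Sec61 channel, signal peptidase trims the chain, COPII coats bud vesicles toward the Golgi, and COPI coats and KDEL receptors return escaped ER residents. Inherited defects in several of these genes, among them Sec23a, Sec24d, Kdelr2 and Trappc2, are known from skeletal disorders. Acan codes for aggrecan, the main proteoglycan of cartilage, and Col10a1 for type X collagen, the classic marker of hypertrophic chondrocytes.

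Of the 217 columns, 52 fell into 23 sets whose columns correlated at 0.964 to 0.994 with each other, and each set was averaged to 1 profile, which took 29 columns away. A column named Cell_204, which correlated with others at up to 0.876 where no other pair outside the sets passed 0.686, was left out. The columns and means that remained, called profiles below, were the 217 columns less these 30. A gene was called detected in a profile where its back-transformed value was at least 1. The level is the deposited log2(value + 1). Its unit of abundance is not given in the sources used here, so levels are compared within a gene and not between genes. Acan apart, the cartilage markers Sox9, a transcription factor, Hapln1, a link protein, and Col9a1, a collagen, were detected in 97.3%, 97.3% and 95.2% of profiles.

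4 members held TGACGTG or its reverse complement CACGTCA within 250 bases before the start site. This is the core of the unfolded protein response element, bound by factors such as ATF6 and XBP1. Each site is printed below as 27 bases on the gene's strand, with the match in capitals, from RefSeq promoters of build GRCm38.p6, the assembly also known as mm10. The Copb1 site lies at chr7:114254691-114254717 on the minus strand, the Kdelr3 site at chr15:79516369-79516395 on the plus strand, the Sec24d site at chr3:123267460-123267486 on the plus strand, and the Srpr site at chr9:35211180-35211206 on the plus strand.
Copb1: cgcccccttcCACGTCAgccaaggact
Kdelr3: gccgccccgcCACGTCAccgcgcggcc
Sec24d: cccgggcgccTGACGTGgcactagcaa
Srpr: gctgctggtgTGACGTGtcccgcgctt
Kdelr3 and Copb1 carried the reverse complement, and Sec24d and Srpr the forward letters. Promoters were found for 62 of the 76 members, and 6.45% of these members held the core. It was held by 2.77% of the 7316 measured genes with a promoter and 1.85% of all 27025 genes with one. Each promoter was searched over the same 250 bases, and a gene counted where any of its promoters matched.

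The windows of 3 members on which the results below turn are shown for comparison: Kdelr3, which holds the core, and Ssr1 and Ssr3, which do not. For Ssr1 and Ssr3 the capitals mark CCACG, the conserved end of the ER stress response element, and for Kdelr3 they mark CACGTCA. The Kdelr3 window is chr15:79516158-79516407 on the plus strand, the Ssr1 window chr13:37994218-37994458 on the minus strand and the Ssr3 window chr3:65392624-65392803 on the minus strand; the Ssr1 and Ssr3 windows leave out bases that an annotated exon covers.
Kdelr3: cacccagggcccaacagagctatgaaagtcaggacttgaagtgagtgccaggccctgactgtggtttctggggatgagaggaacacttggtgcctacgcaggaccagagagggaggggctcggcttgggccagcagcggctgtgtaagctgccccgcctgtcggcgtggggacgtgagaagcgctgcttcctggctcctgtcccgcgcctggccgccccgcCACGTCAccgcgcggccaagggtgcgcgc
Ssr1: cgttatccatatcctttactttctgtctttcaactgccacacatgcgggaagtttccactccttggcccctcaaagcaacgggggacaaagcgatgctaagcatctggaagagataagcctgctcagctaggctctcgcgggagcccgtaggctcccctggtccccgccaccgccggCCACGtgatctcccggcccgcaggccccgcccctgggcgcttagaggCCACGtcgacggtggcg
Ssr3: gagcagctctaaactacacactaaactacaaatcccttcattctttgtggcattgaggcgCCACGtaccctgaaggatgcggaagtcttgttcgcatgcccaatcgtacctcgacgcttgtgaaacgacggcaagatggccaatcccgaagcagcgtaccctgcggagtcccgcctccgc
CCACG, searched on both strands, was found in 51.6% of the members with a promoter, against 47.4% of such measured genes and 30.96% of all such genes. TGACG, the cyclic AMP response element's conserved part, was found in 40.3%, against 31.7% and 19.8%. These searches overlap, since every TGACGTG holds TGACG and a CCACG can run into CACGTCA, as it does in the Kdelr3 site. A match is only a description of the letters.

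Most of the machinery was detected in most cells. The median member was detected in 87.2% of all profiles, against 24.1% for the median of all genes, and 35 members were detected in at least 90%. Ssr2 and Ssr3 of the TRAP complex, Sec62 of the translocon and Srpr, the receptor for the signal recognition particle, were detected in every profile. 7 members were detected in under 20%: Tmed8, Sec24c, Sec23b, Copg2, Trappc10, Srp54b and Trappc3. Every gene in the table is above 0 in at least 10 columns, so a member below that level would not be listed.

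**Figure D1:**
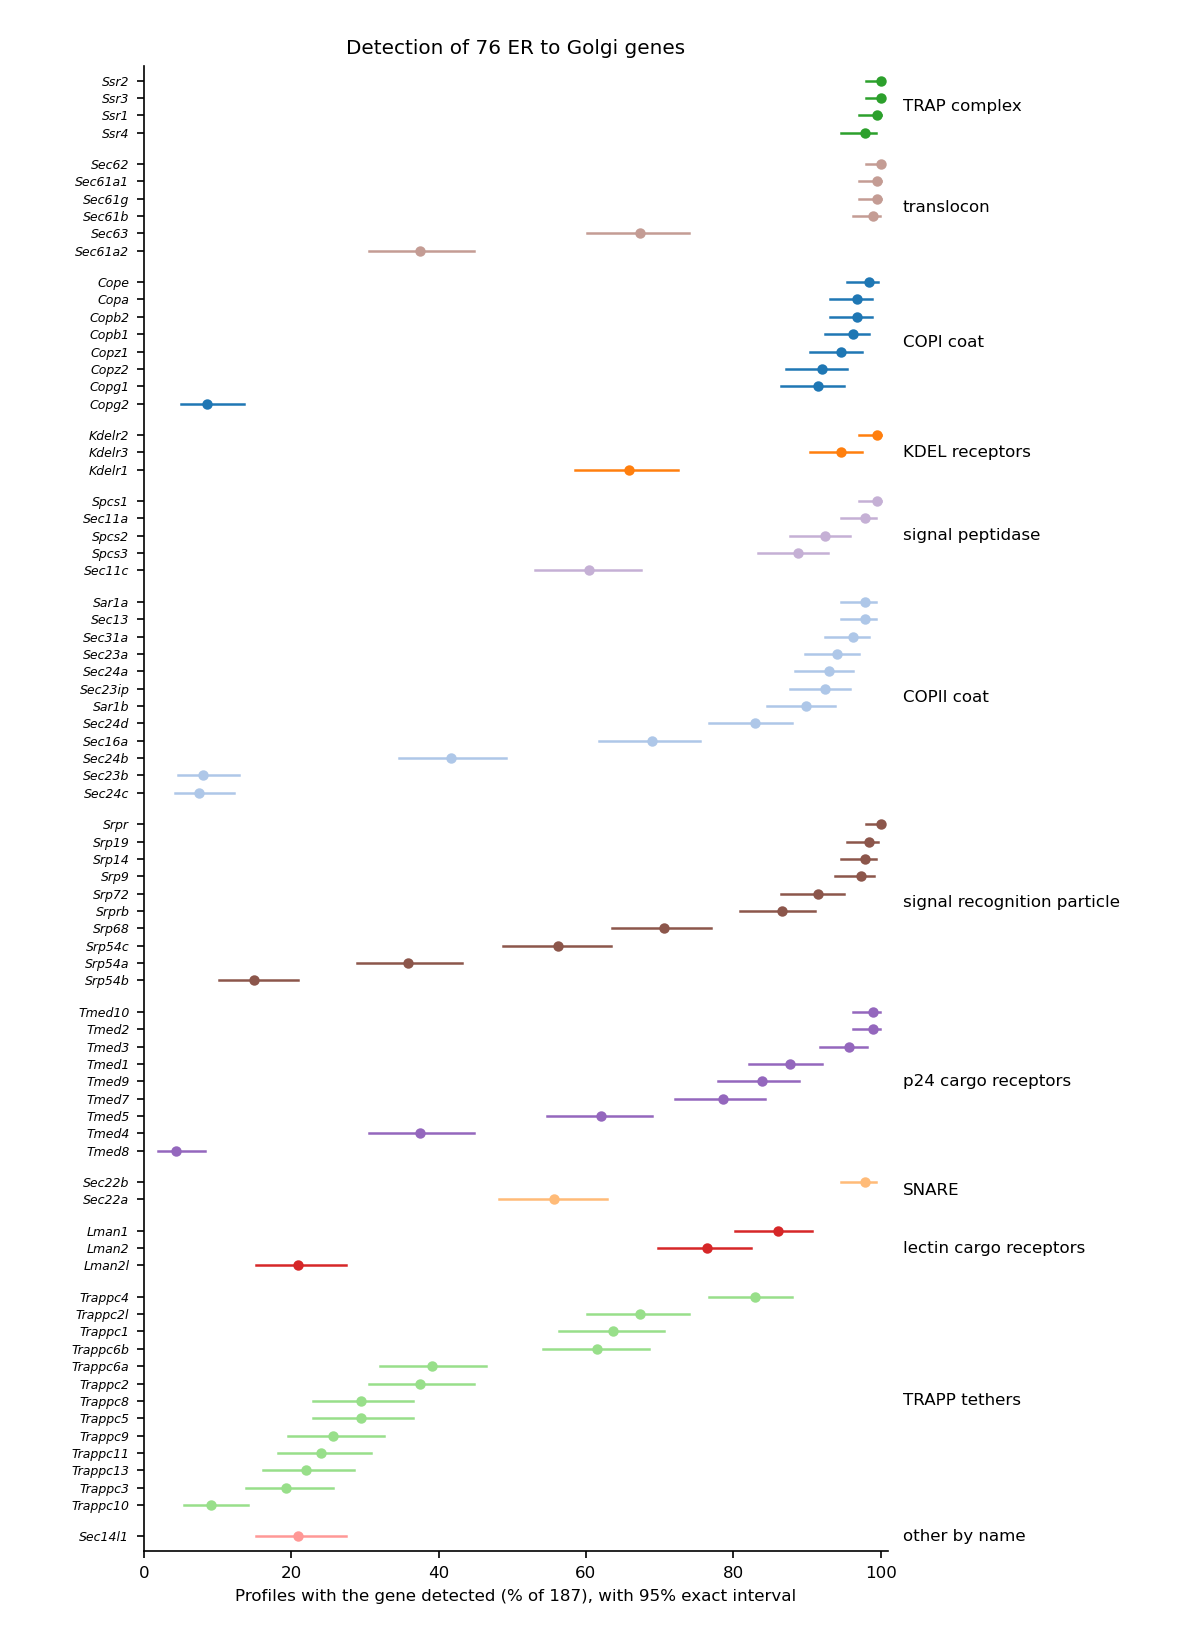
Share of all profiles in which each of the 76 members was detected (points, in percent) with its exact 95% binomial interval (lines), grouped by role. The TRAP complex lies near 100%, the translocon too except for Sec63 (67.4%) and Sec61a2 (37.4%), and the COPI coat above 90% except for Copg2 (8.56%), while the TRAPP tethers spread from 9.09% to 82.9%.

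The entry machinery was near universal. The 4 subunits of the TRAP complex, which sits beside the channel and helps some signal sequences to open it, ranged from Ssr4 at 97.9% to Ssr2 and Ssr3 at 100%. Of the translocon genes, Sec61a1, which codes for the pore-forming subunit, was detected in 99.5% of profiles, and its paralog Sec61a2 in 37.4%. Sec61b and Sec61g, the small subunits, were detected in 98.9% and 99.5%. Sec63, which recruits the lumenal chaperone to the channel, was detected in 67.4%.

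In the signal recognition particle group, Srp19, Srp14 and Srp9, which help to assemble the particle and its Alu domain, were detected in 98.4%, 97.9% and 97.3%. Srp54a, Srp54b and Srp54c, near-identical copies between which reads may have been split, were detected in 35.8%, 14.97% and 56.1%, and their values are uncertain. Of the signal peptidase genes, the accessory subunit Spcs1 was detected in 99.5%. Of its catalytic subunits, Sec11a was detected in 97.9% and Sec11c in 60.4%.

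Among the coat paralogs, Sec23a and Copg1 were detected in far more profiles than Sec23b and Copg2, which is not a comparison of levels. Sec23a, the inner COPII coat subunit, was detected in 94.1% of profiles (exact 95% binomial interval 89.7% to 97.03%), and Sec23b in 8.02% (4.56% to 12.9%). Of the 4 Sec24 cargo adaptors, Sec24a was detected in 93.1%, Sec24d in 82.9%, Sec24b in 41.7% and Sec24c in 7.49%. The outer coat genes Sec13 and Sec31a stood at 97.9% and 96.3%, the GTPases Sar1a and Sar1b at 97.9% and 89.8%, and Sec16a, which organizes ER exit sites, at 68.98%. In the COPI coat, Copg1 was detected in 91.4% and Copg2 in 8.56%, with Cope the highest at 98.4% and Copa at 96.8%. These intervals treat cells as independent and cover counting error only.

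Receptors and tethers also differed among themselves. Kdelr2 was detected in 99.5% of profiles, Kdelr3 in 94.7% and Kdelr1 in 65.8%. Among the p24 proteins, which sort cargo into vesicles, Tmed10 and Tmed2 were each detected in 98.9%, and Tmed8 in 4.28%. Of the lectins that carry glycoproteins out of the ER, Lman1 was detected in 86.1%, Lman2 in 76.5% and Lman2l in 20.9%. The SNARE gene Sec22b was detected in 97.9% and Sec22a in 55.6%. The 13 TRAPP genes had a median of 29.4%, with Trappc4 the highest at 82.9% and Trappc10 the lowest at 9.09%. Sec14l1, which the rule takes in by name and which codes for a lipid-binding protein rather than a coat subunit, was detected in 20.9%.

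The median SD of a member over the profiles with Acan of at least 5 was 1.89, and its median SD between columns of a set was 0.32 (29 degrees of freedom). The sets were chosen for high correlation, so the second value is small by construction and describes technical noise at best. The mean level over the 76 members ran from 1.19 to 5.57 in those profiles (median 4.71) and moved with the number of genes detected (Spearman's rho 0.70 over those cells). Part of the difference between cells therefore goes with how many genes a library shows.

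Acan divided the profiles without intermediates: 11 had Acan of 2.91 or less and all others 6.67 or more (median 9.19), and these are called the low and the high profiles. The 11 low profiles were mostly bone-like by their markers. Col1a1, the main collagen of bone, was detected in 8 of them and was at least 5 in all 8, Ibsp, a bone matrix gene, in 9, Sox9 in 6, Pecam1, an endothelial gene, in 3 and Col10a1 in 2. The low profiles also showed fewer genes, with 2187 to 4118 detected (median 2757) against 1326 to 4994 (median 3463.5). In an alternative, each gene was first regressed on the number of genes detected, without the split in the fit. The median difference reported next was then 0.13 for the members and 0.06 for all genes. Such a fit can also take out part of the split, since the low profiles showed fewer genes. Of the members, 35 to 58 (median 52) were detected in a low profile and 20 to 66 (median 55) in a high one.

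The machinery as a whole differed little across this split, and a few genes differed a great deal. The median member was higher by 0.48 on the log2 scale at high Acan, against 0.16 for all genes. 24 of 76 members were higher by at least 1, where 16.8% of all genes were, and 2 were lower by at least 1, where 10.9% were. Genes detected in many cells were more often higher: of those detected in at least 90% of profiles, 16 of 35 members (45.7%) and 43.5% of all 827 genes were higher by at least 1. Among genes detected in 50% to 90%, it was 6 of 21 members (28.6%) and 43.6% of all genes. The members' share was thus near that of equally common genes, or below it.

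Ssr1 showed the widest gap. It codes for the alpha subunit of TRAP and lies on chromosome 13 (mm10, 37971401 to 37994208). Its level was 0 at the lowest, 10.47 at the median and 12.12 at the highest in the high profiles, and 4.62, 6.44 and 9.48 in the low ones. All 11 low profiles lay below the lower quartile of the high ones, although the full ranges overlapped. The means were 10.02 ± 1.40 (SD, high profiles) and 6.52 ± 1.38 (SD, 11 low profiles), a difference of 3.50, which ran from 3.31 to 3.80 as each low profile was left out. Against the 8 low profiles with Col1a1 alone it was 3.36. Its partner Ssr3 differed by 0.88 and Ssr2 by 0.06.

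Kdelr2, a receptor that returns ER residents carrying the KDEL tail, came close to the same separation. It stood at 3.31, 9.62 and 11.07 (lowest, median, highest) at high Acan and at 0, 7.70 and 9.37 at low Acan. 10 of 11 low profiles lay below the high profiles' lower quartile. The means were 9.42 ± 1.03 and 7.10 ± 2.53, and the difference of 2.32 fell to 1.42 against the Col1a1 profiles alone and to 1.61 without Cell_110, where it was listed at 0. With Kdelr2 and Ssr1, the genes Sec61g, Srp19 and Tmed7 made 5 members with at least 9 of 11 low profiles below that quartile, where 2.51% of all genes had as many. A gene whose lower quartile in the high profiles is 0 cannot be counted here. The median member was detected in 87.2% of profiles and the median of all genes in 24.1%. The 2.51% is thus not a share of equally common genes, and no excess of members is read from it.

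Tmed7, a p24 receptor, had a median of 4.93 in the high profiles and was detected in 4 of the 11 low ones. Its means were 4.45 ± 2.70 and 1.26 ± 1.82, a difference of 3.19. Tmed1 of the same family differed by 2.61, and their partners Tmed2 and Tmed10 by 0.54 and 1.74. Tmed3 differed by 1.81, and by 1.19 without Cell_061.

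Early steps were also represented. Srp14 stood at 7.74 ± 1.32 in the high profiles and at 4.88 ± 3.43 in the low ones (difference 2.87), with 8 of 11 low profiles below the lower quartile. Srp19 differed by 1.87 and Spcs1 by 1.77. Sec22b, the SNARE that acts in fusion between ER and Golgi membranes, stood at 7.47 ± 1.60 and 4.80 ± 3.24. Sec61b stood at 7.69 ± 1.05 and 5.74 ± 3.05, and its difference of 1.95 was 0.35 against the Col1a1 profiles alone.

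Among the tethers, Trappc2, the gene of X-linked spondyloepiphyseal dysplasia, was detected in 70 of the high profiles and in 0 of 11 low ones, which allows a share of up to 27.3% (3 of 11, counting error only, with cells taken as independent). It was listed at 0 in each low profile and averaged 2.28 ± 3.02 in the high ones. Trappc2l differed by 1.88. The other 12 members past 1 upward ranged from Copz2 at 1.04 to Tmed10 at 1.74 and included Kdelr3 at 1.35, Kdelr1 at 1.22, Sec13 and Ssr4 at 1.23 each and Sec24a at 1.12.

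Sec63 and Sec16a were the 2 members lower by at least 1 at high Acan. Sec63 stood at 3.12 ± 2.56 against 4.43 ± 2.64 (difference -1.31) and Sec16a at 2.40 ± 1.95 against 3.43 ± 2.08 (difference -1.03), with wide overlap. 9 of the 12 COPII genes differed by less than 1, among them Sar1a by -0.02, Sec31a by 0.16, Sec23a by 0.67 and Sec24d by -0.57. Sec61a1 differed by -0.02, Copa by 0.41 and Lman1 by 0.13.

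**Figure D2:**
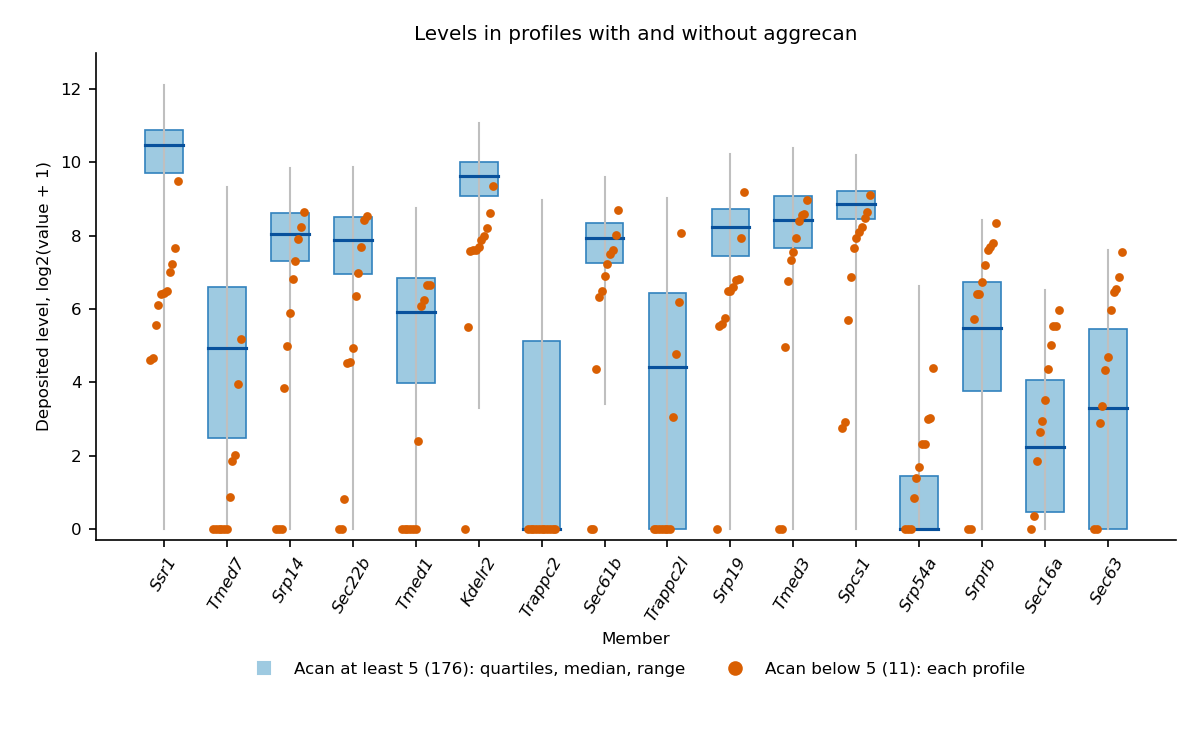
Deposited level, log2(value + 1), of the 12 members with the widest positive and the 4 with the widest negative difference between profiles with high and low Acan; boxes give the quartiles and median of the high profiles, grey lines their range, and orange points each of the 11 low profiles. All 11 points of Ssr1 and 10 of Kdelr2 lie below the box, and those of Trappc2 all lie at 0.

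Single profiles and the make-up of the low group mattered to several calls. 18 of the 24 members stayed past 1 when any 1 low profile was left out. The other 6 reached 0.54 to 0.76: Copz1, Copz2 and Ssr4 without Cell_009, Sec13 and Kdelr3 without Cell_061, and Sec24a without Cell_110. Without Cell_208 Sec63 was at -0.996, just short of the limit, and without Cell_196 Sec16a was at -0.78. Without the 10% of profiles with the fewest genes, which kept 6 low profiles, 14 members were higher and 8 lower, where 14.9% and 16.1% of all genes were. With the number of genes detected regressed out first, 15 were higher and 8 lower, where 12.1% and 13.5% of all genes were. Against the 8 low profiles with Col1a1 alone, a choice made after seeing the data, 15 members were higher by at least 1, where 15.9% of all genes were, and 8 were lower, where 11.8% were.

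Those 8, which were higher in the bone-like profiles, spanned several roles. They were Srprb (-2.26), Sec63 (-2.19), Sec24d (-1.46), Sec16a (-1.25), Trappc13 (-1.21), Sec24b (-1.14), Lman1 (-1.12) and Sec11c (-1.11). Sec24d, Sec24b and Sec16a belong to the COPII system. Its other 9 genes ran from Sar1a at -0.50 to Sar1b at 0.84, with Sec31a at -0.15, Sec23a at 0.38 and Sec13 at 0.74. 14 of the 15 members higher against the bone-like profiles were also among the 24. The difference also went with transcript length, since over the 69 members detected in at least 20% of the high profiles rho between difference and length was -0.49, and over all such genes -0.22.

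Other genes of the pathway were taken from lists of known function. Of 12 oligosaccharyl transferase genes, which attach N-glycans, 5 were higher by at least 1 and 0 lower (median difference 0.93). Its median gene was detected in 97.6% of profiles, and of all genes detected in at least 90%, 43.5% were higher and 4.72% lower. The list was led by Stt3b (1.81), Tmem258 (1.65) and Dad1 (1.60). Of 42 other ER to Golgi transport genes, 11 were higher and 2 lower (median 0.51), and their median share of 67.6% falls in the range of 50% to 90%, where 43.6% of all genes were higher and 13.2% lower. Tmem167 led with 5.54 ± 1.02 against 2.33 ± 2.28, followed by Bet1 (2.42) and Cnih1 (2.22), and Mia3, a receptor that loads large collagens into COPII carriers, was lower (-1.06), also against the Col1a1 profiles alone (-2.17). Arf1, a COPI GTPase, was the other lower gene (-1.01).

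Of 24 genes for ER folding and collagen processing, 8 were higher and 1 lower (median 0.33, median share 83.4%, in the same range), with Crtap (2.70), Plod3 (2.26), P4ha2 (2.20) and Pdia6 (2.08) highest and Hspa5, the lumenal chaperone BiP, at -1.62. Of 10 secretory transcription factors, 2 were higher and 1 lower (median -0.06, median share 54.8%, in the same range): Sox9 (6.26), Creb3l2 (1.59) and Atf6 (-2.18). Creb3l2, which activates COPII genes in chondrocytes, was detected in 80.7% of profiles. Within the high profiles its rho with the members had a median of 0.03 and was 0.12 with Sec23a and 0.01 with Sec24d.

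The lists that mark cell types framed the split. 19 of 22 cartilage cargo genes were higher by at least 1 at high Acan (median difference 8.39), led by Lect1 (11.31), and 2 were lower, Dcn (-3.33) and Bgn (-1.24). The median gene of this list was detected in 94.7% of profiles, and of all genes detected in at least 90%, 43.5% were higher and 4.72% lower. 9 of 12 osteoblast genes were lower (median -3.88), led by Ibsp (-8.73) and Col1a1 (-8.13), with Smpd3 higher (3.91). Of 14 hypertrophic genes 4 were higher and 5 lower, of 7 perichondrial and fibroblast genes 1 and 4, of 7 macrophage and osteoclast genes 0 and 1, and of 18 immediate-early and heat shock genes 1 and 6. The summed means of the osteoblast list were 21.8 at high and 65.6 at low Acan, and the list's mean level per profile ran from 0.18 to 7.05 and from 0 to 9.86. For endothelial cells only Pecam1 was measured (-0.75). No red blood cell or neutrophil gene was measured.

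Within the high profiles the members showed little relation to the level of Acan as a group. They share 1 sample and 1 platform, and depth per cell is unknown. The median Spearman correlation was 0.05 over the 69 members detected in at least 20% of these profiles and 0.02 over all such genes. 5 members had rho of at least 0.2 with Acan, where 7.42% of genes did: Sec61b (0.40), Cope (0.32), Srpr (0.24), Tmed1 (0.23) and Spcs1 (0.23). 8 had rho of at most -0.2, where 3.42% of genes did: Ssr3 (-0.30), Ssr1 (-0.29), Tmed7 (-0.24), Sec24a (-0.24), Spcs3 (-0.23), Kdelr2 (-0.22), Trappc6b (-0.21) and Trappc4 (-0.21). Among genes detected in at least 90% of the high profiles, 4 of 37 members (10.8%) and 10.5% of all genes had rho of at most -0.2. For rho of at least 0.2 it was 5 members (13.5%) and 21.3% of all genes. Among these common genes the share of negative members was thus near that of all genes. The other negative members were less common, and no share of equally common genes was taken for them.

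Ssr1 and Kdelr2 thus stood higher in cells with Acan than in cells without it, yet their rho with Acan over all the high profiles was negative. In the 88 profiles with the higher GC score, described next, it was -0.50 for Ssr1 and -0.47 for Kdelr2. In the 88 with the lower score it was 0.23 and 0.03. The score itself had rho of 0.60 with Acan, so a division by it also divides the cells by Acan in part. The difference between these parts was not tested. Within TRAP, Ssr1 and Ssr3 had negative and Ssr2 positive rho (0.15), but given that score all 4 subunits lay between -0.11 and -0.05. Within signal peptidase Spcs1 had 0.23 and Spcs3 -0.23, and given that score 0.19 and -0.02.

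Base composition moved with these relations. For each profile a GC score was taken, the mean level of the 20% of genes with the highest GC content minus that of the 20% with the lowest, without the members, Acan and Col10a1. This score had rho of 0.60 with Acan, 0.32 with Col10a1 and 0.15 with the number of genes detected. Across the 69 members rho between GC content and the relation to Acan was 0.49, and across 5038 genes 0.32. Given the score, 0 members had rho of at least 0.2 with Acan, where 0.781% of genes did, and 1 had at most -0.2, Trappc4 (-0.22), where 0.669% did. Sec61b was then at 0.16, Cope at 0.03, Ssr1 at -0.11 and Ssr3 at -0.07. Given the number of genes detected instead, 5 and 9 members passed these limits, where 5.93% and 4.22% of genes did. With upper-quartile scaling 26 and 0 did, where 23.8% and 0.669% of genes did, and the median rho of all genes moved from 0.02 to 0.11. The part of the score in these relations beyond this was not tested.

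**Figure D3:**
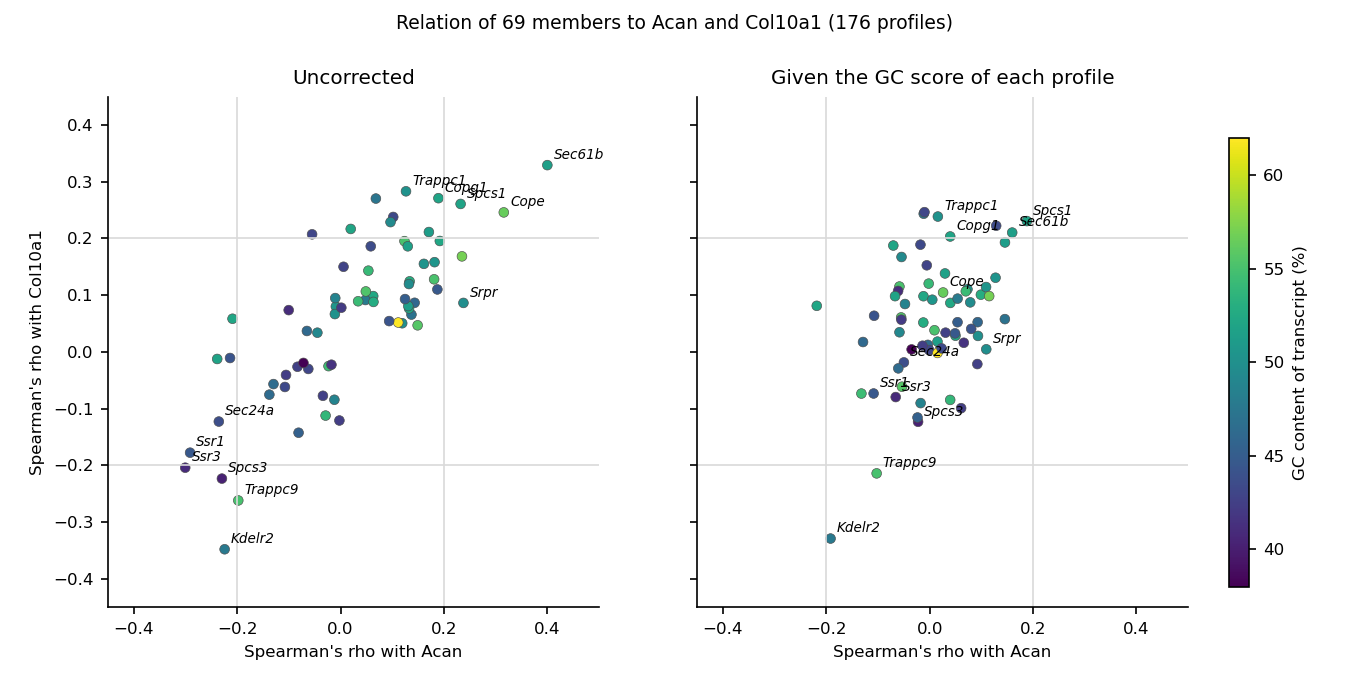
Spearman's rho of each of 69 members with Acan (horizontal) and Col10a1 (vertical) over the high profiles, uncorrected and given the GC score; colour gives the GC content of the transcript and grey lines mark 0.2 and -0.2. Sec61b lies at 0.40 and 0.33 and Kdelr2 at -0.22 and -0.35 without correction; given the score Trappc4 (-0.22) is the 1 member beyond these lines for Acan and Kdelr2 remains at -0.33 for Col10a1.

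The relation to Col10a1 was slightly positive for the members and near that of all genes. The median Spearman correlation was 0.08 over the members and 0.06 over all genes. 11 members had rho of at least 0.2, where 11.5% of genes did: Sec61b (0.33), Trappc1 (0.28), Copg1 (0.27), Spcs2 (0.27), Spcs1 (0.26), Cope (0.25), Sec22b (0.24), Srp14 (0.23), Srprb (0.22), Tmed9 (0.21) and Srp54c (0.21). 4 had at most -0.2, where 3.27% did: Kdelr2 (-0.35), Trappc9 (-0.26), Spcs3 (-0.22) and Ssr3 (-0.20). Given the GC score, 7 and 2 passed these limits, where 7.57% and 2.64% of genes did. Given the number of genes detected, 3 and 4 did, where 5.21% and 5.26% of genes did, and the median rho was 0.013 for the members and 0.00048 for all genes. Among genes detected in at least 90% of the high profiles, 7 of 37 members (18.9%) and 16.6% of all genes had rho of at least 0.2. For rho of at most -0.2 it was 2 members (5.41%) and 10.9% of all genes.

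Kdelr2 was the member with the most negative relation to Col10a1. In the 44 high profiles with the lowest Col10a1 it stood at 8.20, 9.75 and 10.92 (lowest, median, highest), and in the 44 with the highest Col10a1 at 5.22, 9.18 and 10.59. These groups overlapped, and the latter was lower in its median and in its lowest cells, with means of 9.78 ± 0.57 and 8.75 ± 1.25 (SD). The GC score also differed between these groups (medians -0.51 and -0.14), as did the number of genes detected (medians 3063 and 3610).

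The size of this relation of Kdelr2 differed between the lower and the higher part by GC score. In the 88 profiles with the lower GC score rho of Kdelr2 was -0.09 with Col10a1 and 0.03 with Acan, and in the 88 with the higher score it was -0.52 and -0.47. Ssr1 went the same way, with rho with Acan of 0.23 in the former and -0.50 in the latter, and with Col10a1 of 0.16 and -0.36. A single rho over all cells given the score does not show this contrast. The difference between the parts was not tested.

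Sec61b and Spcs1 went with Col10a1 in the other direction. Sec61b rho with Col10a1 was 0.19 in the lower and 0.35 in the higher part by GC score, and with Acan 0.26 and 0.29. Its mean was 7.26 ± 1.11 in the 44 lowest and 8.15 ± 0.84 in the 44 highest profiles by Col10a1. Spcs1 stood at 8.97 ± 0.55 in profiles with Col10a1 of at least 5 and at 8.23 ± 1.58 in the 58 below, and its rho with Acan was 0.39 in the lower part by GC score and 0.06 in the higher.

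**Figure D4:**
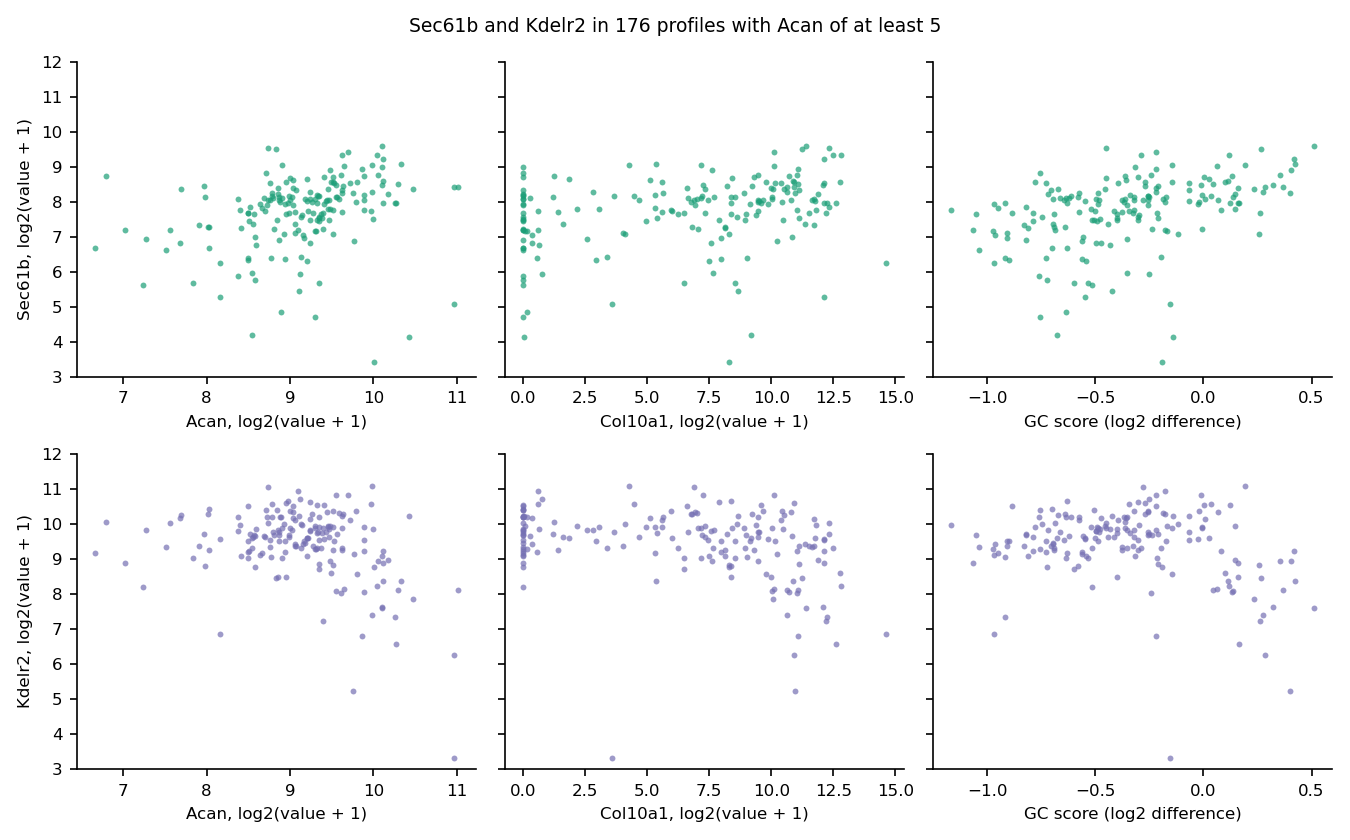
Level of Sec61b (upper row) and Kdelr2 (lower row) in each of the high profiles, against the level of Acan, of Col10a1, and the GC score; 1 point is 1 profile. Sec61b climbs gently along all 3 axes, and most of the lowest Kdelr2 values lie where Col10a1 or the GC score is high, apart from 1 profile at 3.31.

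The members did not vary together as a single module. Over the 2346 pairs of the 69 members the median rho was 0.05, against 0.03 over all pairs of genes, and 19 pairs (0.810%) reached 0.3, where 0.147% of all pairs did. Among genes detected in at least 90% of profiles it was 16 of 666 pairs (2.40%), where 2.42% of all such pairs did, so the members' share was near that of equally common genes. The 223 pairs within a role had a median of 0.06 and the 2123 pairs between roles 0.04, and 1 of the 19 pairs, Ssr1 with Ssr3, lay within a role.

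Of the 6 strongest pairs, all but Ssr1 with Ssr3 joined different roles. Kdelr2 and Ssr1 had rho of 0.54 (0.53 given the GC score), Ssr1 and Ssr3 0.52 (0.44), Cope and Sec61b 0.49 (0.33), Sec24a and Ssr1 0.40 (0.32), Cope and Ssr2 0.38 (0.27) and Kdelr2 and Ssr3 0.37 (0.35). The lowest was Trappc9 with Spcs1 at -0.30. Arranged after seeing these values, Ssr1, Ssr3, Kdelr2 and Sec24a had 0.30 to 0.54 among their 6 pairs, and Cope, Sec61b, Sec13, Ssr2 and Kdelr3 had 0.21 to 0.49 among their 10. The 20 pairs across ran from -0.20 to 0.14 (median -0.04), and given the GC score had a median of 0.08. Given that score Ssr2 had 0.22 with Ssr1 and 0.29 with Ssr3, as high as several pairs within the second set (0.12 to 0.33), so that the division does not hold for Ssr2.

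**Figure D5:**
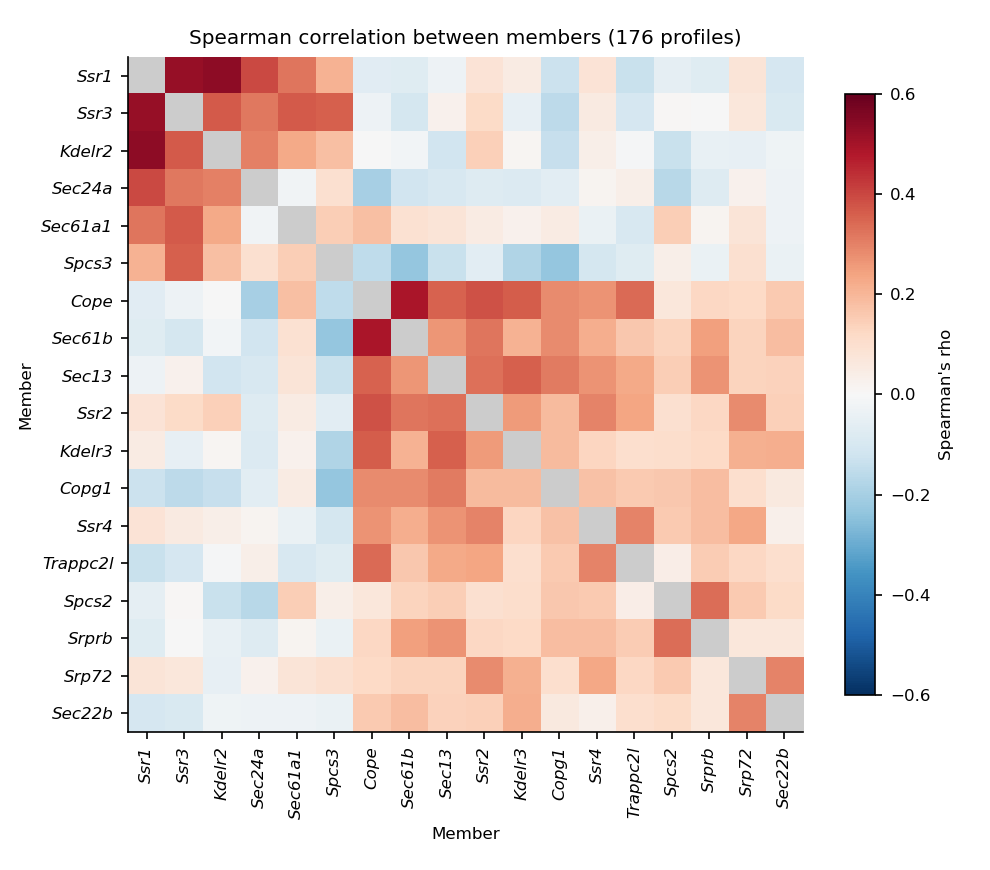
Spearman's rho between 18 members over the high profiles, red for positive and blue for negative, with the diagonal in grey; genes were chosen and ordered after seeing the values. Ssr1, Ssr3, Kdelr2 and Sec24a form a red block at the upper left and Cope to Kdelr3 another, with pale or blue cells between them.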

How the data were processed

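Single cells of the growth plate were profiled in 217 columns. Values deposited by the authors are log2 values from 0 to 15.1, and 62.3% are exactly 0; base 2 and a pseudocount of 1 were inferred from the values. The submitters' processing notes name TopHat and mm10. For quantifier, filters and unit, nothing is stated (not given in the sources used here). Back-transformed totals ran from 394406 to 616257 per column (median 476331). Scaling for depth by the authors is inferred from this narrow range and is not stated. Depth and its error per cell are unknown, and an exact 0 can be a failed estimate.

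Columns correlating above 0.95 were averaged, Cell_204 was dropped, and profiles were divided at Acan of 5. Means, SDs, shares (detected: back-transformed value of at least 1) and Spearman's rho (genes detected in at least 20% of the high profiles: 69 members, 5380 genes) were computed with Python 3.11.15, NumPy 2.4.6, pandas 2.3.3 and SciPy 1.17.1 and tested on simulated data. Partial rho was taken on ranks. Transcript length and GC content came from GENCODE M21 on mm10 (GC known for 93.7% of these genes), and promoters from RefSeq.

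Named were, per role, the members of highest and lowest share, members past 1 on the log2 scale in the Acan split (at most 12 per direction), the 6 of highest and lowest rho, the 6 strongest pairs and a set of key genes; in other lists at most 4 per direction past 1. Copb1, Srpr, the pairs' partners, the members past 0.2 or -0.2, those below 20% and those past 1 against the Col1a1 profiles were also named, after their values were seen. The members and lists were chosen with earlier results of these data known. No doublet caller was run. Alternatives were repeats kept apart, other limits, upper-quartile scaling, and the number of genes detected, regressed out before the split or given in a partial rho. Added after seeing the data were the GC score, the Col1a1 profiles, commonly detected genes and leaving out single profiles.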

Additional observations from a re-analysis of the deposited data

How the results depend on the processing

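The alternatives, which with the GC score, the Col1a1 profiles, the commoner genes and the single profiles left out include choices made after seeing the data, kept the sign of each median below, and counts and values moved as follows; the cause was not tested. Single values did change sign: against the Col1a1 profiles Copz2 went from 1.04 to -0.04 and Lman1 from 0.13 to -1.12, and given the GC score Ssr2 rho with Acan went from 0.15 to -0.05 and the median over the 20 pairs across the 2 sets of members from -0.04 to 0.08. A detection value of 10 gave a median share of 77.3%. The median level difference was 0.46 with repeats apart, 0.20 without the 10% of profiles with fewest genes (6 low profiles kept) and 0.52 with upper-quartile scaling. It was 0.63 with a pseudocount of 0.1, 0.47 with profiles divided at Acan of 8 (24 below) and 0.54 over genes detected in at least 20%. It was 0.13 with the number of genes detected regressed out and 0.24 against the Col1a1 profiles. Leaving out single low profiles gave 0.30 (without Cell_110) to 0.53. Members higher by at least 1 numbered 14 without the profiles with fewest genes, and 15 at Acan of 8, with genes detected regressed out and against the Col1a1 profiles (21 to 27 with single profiles left out). Members lower numbered 8, 1, 8 and 8 in that order, 1 with upper-quartile scaling, 4 with the small pseudocount, and 1 (without Cell_091 or Cell_114) to 4 (without Cell_110) with single profiles left out. For the divide at Acan of 8, upper-quartile scaling, the small pseudocount and single profiles left out, the share of all genes was not counted. The counts there thus describe the members only. The median difference of all genes was 0.16, 0.17 with upper-quartile scaling and 0.06 with genes detected regressed out.

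The median rho with Acan was 0.025 with repeats apart, 0.035 without the sparsest profiles, 0.159 with upper-quartile scaling, 0.014 given genes detected, 0.027 as Pearson's r, 0.061 over members in at least 50%, 0.027 over all profiles and 0.0051 given the GC score; with Col10a1 it was 0.061, 0.058, 0.131, 0.013, 0.070 over all profiles and 0.057 given the GC score. Members with rho of at least 0.2 with Acan numbered 26 with upper-quartile scaling, where 23.8% of genes passed, 8 over all profiles and 0 given the GC score (0.781% of genes). With Col10a1 they numbered 7 with repeats apart (11.4% of genes) and 21 with upper-quartile scaling (19% of genes). They numbered 3 given genes detected (5.21%) and 7 given the GC score (7.57%). Those of at most -0.2 numbered 2 with repeats apart (3.35% of genes), with upper-quartile scaling (1.56%), over all profiles and given the GC score (2.64%). Over all profiles the share of all genes was not counted, for Acan or for Col10a1. The median between members was 0.051, 0.027, 0.108, 0.023 and 0.076 in the order of the first 5, 0.054 over members in at least 50%, 0.050 over all profiles and given the GC score, and 0.070 over those in at least 90%. Kdelr2 rho with Col10a1 was -0.21 with upper-quartile scaling and -0.33 given genes detected. No paired analysis was possible because all columns belong to 1 group and no result comes from a test. All cells are 1 sample, depth is unknown, and 11 low profiles limit the split.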
